A study of Canis lupus familiaris with 36 samples.

Results

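The comparison described here is AS-605240 (AS) added to ibrutinib (Ibr) for 24 h: 3 libraries of cells given both inhibitors (Ibr + AS) against 3 libraries of cells given Ibr alone, paired by passage. These are 6 of the 36 RNA-seq libraries of the series. They were picked by their labels alone, although the comparison was chosen with earlier results of these data known. All cells were CLBL-1, a line grown from the diffuse large B-cell lymphoma of a dog. The full series crosses 4 treatments with incubation for 24, 48 or 72 h in cells of passages p121, p126 and p128, and the question put to the 6 libraries is what AS changes in cells that already receive Ibr.

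Ibr + AS cells received Ibr at 1 µM together with AS at 5 µM, and Ibr cells received 1 µM Ibr without AS. DMSO, the solvent of both inhibitors, was the only addition in the control cells, at the concentration of the Ibr + AS cells. Whether cells given Ibr or AS alone were brought to that concentration is not stated in the study's methods. The compared groups may therefore differ in DMSO as well, and its part in the results was not tested. AS cells received 5 µM AS alone. A pair of wells was prepared for each treatment, and all libraries come from the same cell line, so the 3 replicates stand for 3 passages and not for 3 dogs. Replicates 1, 2 and 3 are passages p121, p126 and p128. Both libraries of a passage fell into the same sequencing run, as inferred from the header of the count table.

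Ibrutinib binds Bruton tyrosine kinase (BTK) irreversibly and blocks a step by which the B-cell receptor activates phospholipase C and NF-kB. AS-605240 inhibits phosphoinositide 3-kinase gamma (PIK3CG), a lipid kinase that acts upstream of AKT and mTOR. The B-cell receptor activates BTK and, as a family, the PI3Ks, whose isoforms are also coupled to other receptors. BTK and PI3K signaling both act on growth, protein synthesis and survival of the B cell.

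The 6 libraries held between 10041386 and 13408790 reads on genes, of which 18.9% to 23.6% fell on the 50 genes with the most reads. Ibr + AS replicate 1 (p121) stood apart: chi-square per degree of freedom of its counts against the other Ibr + AS libraries was 26.9 and 26.1, compared with 8.02 between those others and 3.80 to 8.77 among Ibr libraries. In mean Euclidean distance of log2 CPM over 10770 genes it lay at 46.3 from the rest of its group (36.7 and 37.4 for replicates 2 and 3). Its distance from Ibr 24 h was 65.7 (46.1 and 49.2 for replicates 2 and 3). From Ibr + AS 48 h it lay at 40.5, farther than replicates 2 and 3 (36.8 and 36.4). No pair of libraries of a group held identical counts. Counts are therefore given below with this library and, where they lead a description, without it. Of 18670 genes tested, 1068 could be paired with a symbol (5.72%), so that most differentially expressed genes (DEGs) are described here by number and not by name.

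Past a log2 FC of 1, more genes rose than fell when AS was added to Ibr. MTSS1, HMOX1 and TMEM71 led the named genes that rose, and MYC and SQSTM1 rose by a log2 FC of 1.04 and 1.11. SERPINB2 led the named genes that fell. Over all genes tested, 537 (2.88% of those tested) were DEGs, that is, past a log2 FC of 1 in size and an adjusted p of 0.05 (edgeR's quasi-likelihood test, Benjamini-Hochberg adjustment). Of these, 416 were higher in Ibr + AS (2.23%) and the rest lower (0.648%). By the adjusted p alone the directions were near equal, with 1870 genes higher and 1753 lower and a median log2 FC of -0.00 over all genes. Without Ibr + AS replicate 1, 333 were higher and 84 lower, and 359 DEGs were shared with the fit of all libraries.

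MTSS1 (ENSCAFG00000001050), which encodes a membrane-bending actin regulator, held 10.3, 8.43 and 8.93 CPM (read counts scaled to a common library size with TMM factors) in Ibr replicates 1, 2 and 3, and 61.3, 53.1 and 38.8 CPM in Ibr + AS. Every Ibr + AS library lay far above every Ibr library, with the lowest value in replicate 3. The log2 FC was 2.47 ± 0.17 (SE, n = 3 per group, adjusted p = 2.44e-14 by edgeR's quasi-likelihood test).

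HMOX1 (ENSCAFG00000001711), heme oxygenase 1, the enzyme that opens the heme ring, held 7.69, 6.34 and 6.77 CPM in Ibr and 63.8, 26.3 and 24.8 CPM in Ibr + AS. The groups did not overlap, but replicate 1 was well above the other Ibr + AS libraries. Its log2 FC of 2.44 ± 0.34 (SE, n = 3 per group, adjusted p = 9.83e-06 in edgeR) corresponds to 5.43-fold, and to 3.57-fold (log2 FC 1.84) without Ibr + AS replicate 1. TMEM71, a transmembrane protein, went from 30.3, 24.98 and 25.1 CPM to 102, 105 and 72.3 CPM, again with no overlap (log2 FC 1.79 ± 0.16, adjusted p = 3.78e-09 in edgeR).

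MYC (ENSCAFG00000001086), the growth-promoting transcription factor, rose from 183, 169 and 169 CPM to 426, 325 and 324 CPM (log2 FC 1.04 ± 0.10, adjusted p = 3.29e-15 in edgeR). SQSTM1 (ENSCAFG00000000360), the autophagy receptor p62, rose from 76.3, 75.7 and 79.1 CPM to 189, 156 and 156 CPM (log2 FC 1.11 ± 0.10, adjusted p = 7.11e-16 in edgeR). In both genes the Ibr libraries were close together and all 3 Ibr + AS libraries were higher, replicate 1 most of all. The log2 FC of MYC without Ibr + AS replicate 1 was 0.91, under the limit for a DEG, whereas that of SQSTM1 (1.03) was still above it.

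DEPTOR, a protein that binds and inhibits mTOR, held 2.03, 1.62 and 2.05 CPM in Ibr and 2.36, 4.12 and 5.35 CPM in Ibr + AS (log2 FC 1.04 ± 0.26, adjusted p = 0.00136 in edgeR). Here replicate 1 was the Ibr + AS library nearest to Ibr. FGD2, a guanine nucleotide exchange factor of CDC42 found in antigen-presenting cells, rose from 55.1, 47.3 and 50.7 CPM to 130, 92.0 and 98.4 CPM, and KCP, a secreted modulator of BMP signaling, from 74.5, 61.1 and 56.9 CPM to 161, 115 and 129 CPM. Their log2 FCs were 1.06 and 1.07. IL17REL (1.34), MYO1A, a brush-border myosin (1.18), and SCX, a tendon transcription factor (1.08), averaged between 1.30 and 2.28 CPM over the 6 libraries. MYO1A lost its call without Ibr + AS replicate 1 (adjusted p = 0.104 in edgeR, 0.00796 with it), and FGD2 (0.92) and SCX (0.94) were then under the log2 FC limit.

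SERPINB2 (ENSCAFG00000000059), plasminogen activator inhibitor 2, fell most among named genes: Ibr libraries held 2.37, 2.32 and 2.67 CPM and Ibr + AS libraries 0.189, 0.466 and 0.559 CPM. These are 26 to 30 reads against 2 to 7 reads per library, and the groups were far apart. The log2 FC was -2.53 ± 0.36 (SE, n = 3 per group, adjusted p = 1.87e-08 in edgeR). ATP8B1, an aminophospholipid flippase, went from 16.2, 20.2 and 16.5 CPM to 3.97, 8.00 and 12.5 CPM, where replicate 1 was lowest and replicate 3 came nearest to Ibr (log2 FC -1.10 ± 0.22, adjusted p = 0.000598 in edgeR).

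CNKSR3, a scaffold protein of RAS and sodium channel regulation, fell by 1.28 on the log2 scale, from 3.21, 2.94 and 2.05 CPM to 0.568, 1.63 and 1.12 CPM. RGS22, a regulator of G-protein signaling, fell by 1.15, and SNTB1, a syntrophin of the dystrophin complex, by 1.06. None of these groups overlapped. Without Ibr + AS replicate 1 the log2 FCs of CNKSR3 (-0.996), RGS22 (-0.91), ATP8B1 (-0.79) and SNTB1 (-0.88) no longer exceeded 1 in size, although each still passed the adjusted p, and SERPINB2 stayed at -2.28. The plot of CPM by library shows these genes beside DMSO and AS.

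**Figure D1:**
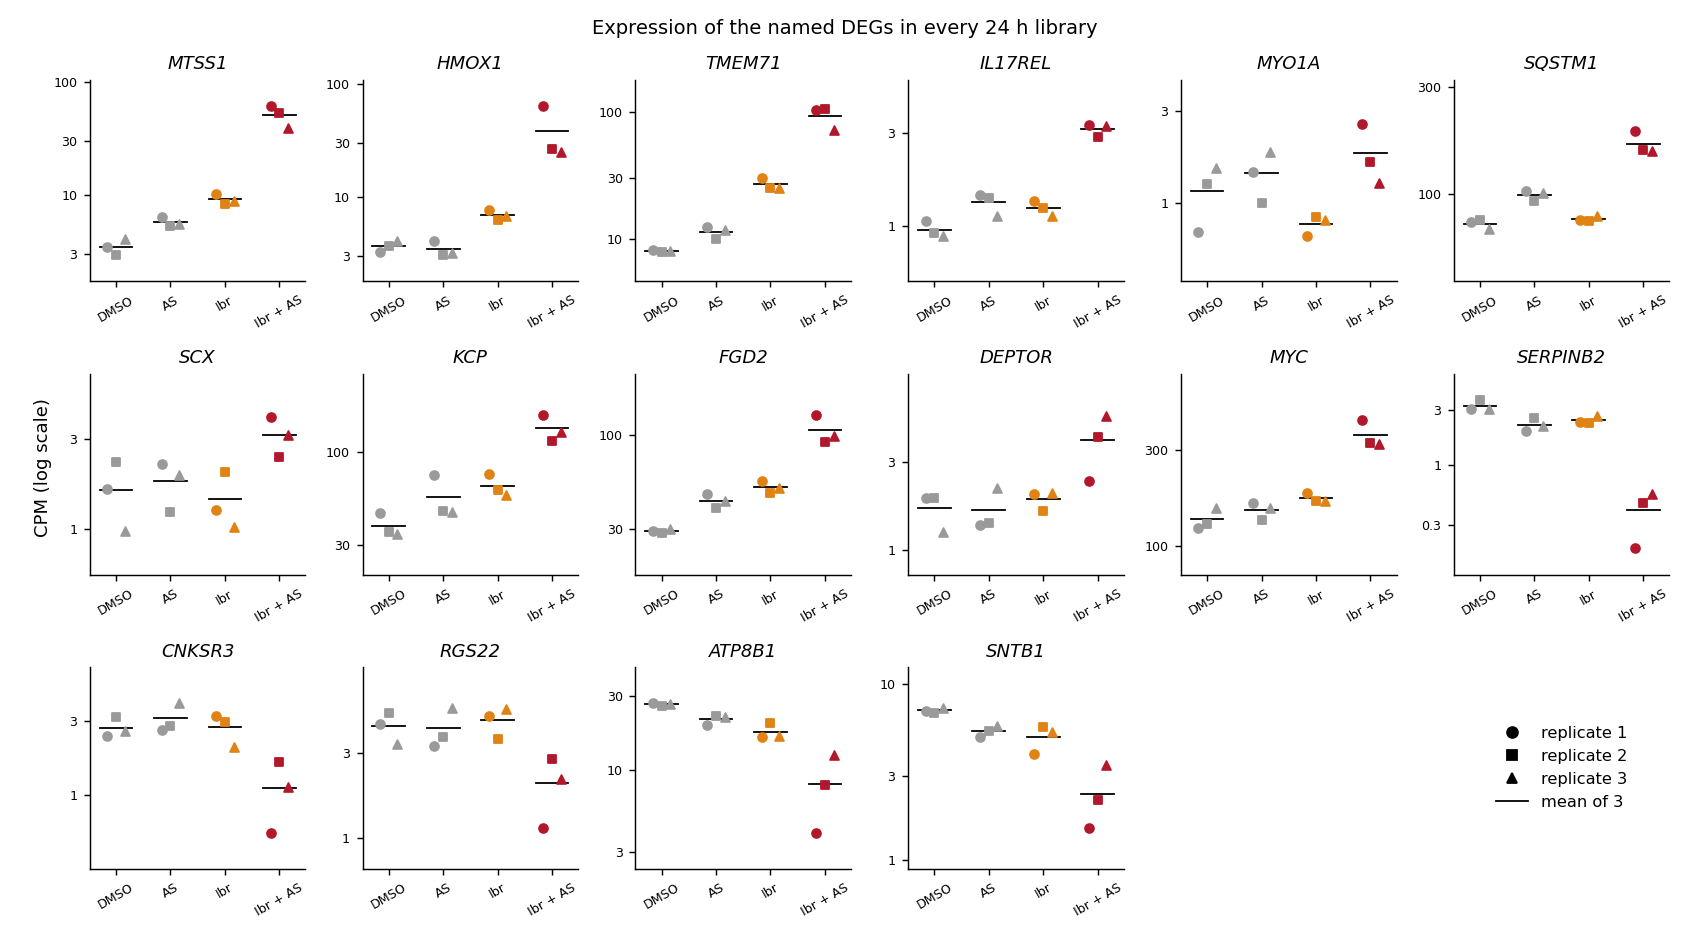
CPM (log axis) of the named DEGs in each 24 h library of DMSO, AS, Ibr and Ibr + AS, with the marker giving the replicate and the line the mean of 3. Ibr + AS libraries lie apart from Ibr libraries in each panel, and replicate 1 is the highest Ibr + AS library for HMOX1 and MYC and the lowest for ATP8B1 and SERPINB2.

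Identifiers without a symbol showed larger differences. ENSCAFG00000018146 held 1, 1 and 0 reads in Ibr and 88, 89 and 18 in Ibr + AS, which is at least 21.02-fold higher against a floor of 3 counts per library. ENSCAFG00000010038 held 0, 0 and 1 reads and 33, 38 and 19 reads, at least 9.57-fold higher. ENSCAFG00000013904 went the other way, from 9.12, 15.5 and 8.21 CPM to 0.380, 1.63 and 2.48 CPM (log2 FC -2.81 ± 0.31, adjusted p = 1.93e-07 in edgeR), and ENSCAFG00000011356 had a log2 FC of -2.46. Some DEGs had next to no reads in one of the groups: in 85 of the 416 that were higher, all 3 Ibr libraries held at most 3 reads, and in 14 of those that were lower, all 3 Ibr + AS libraries did.

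The median log2 FC of the DEGs was 1.60 for those that were higher and -1.29 for those that were lower, whereas it was -0.00 over all genes tested. Of the higher DEGs 149 exceeded a log2 FC of 2, and of the lower ones 18 exceeded this size. The DEGs were drawn unevenly from the range of expression, with 8.16% of genes between 1 and 10 CPM called, against 2.11% below 1 CPM, 1.93% between 10 and 100 CPM and 1.47% at 100 CPM or more. The plot of log2 FC against level shows this as a cloud that narrows to the right.

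**Figure D2:**
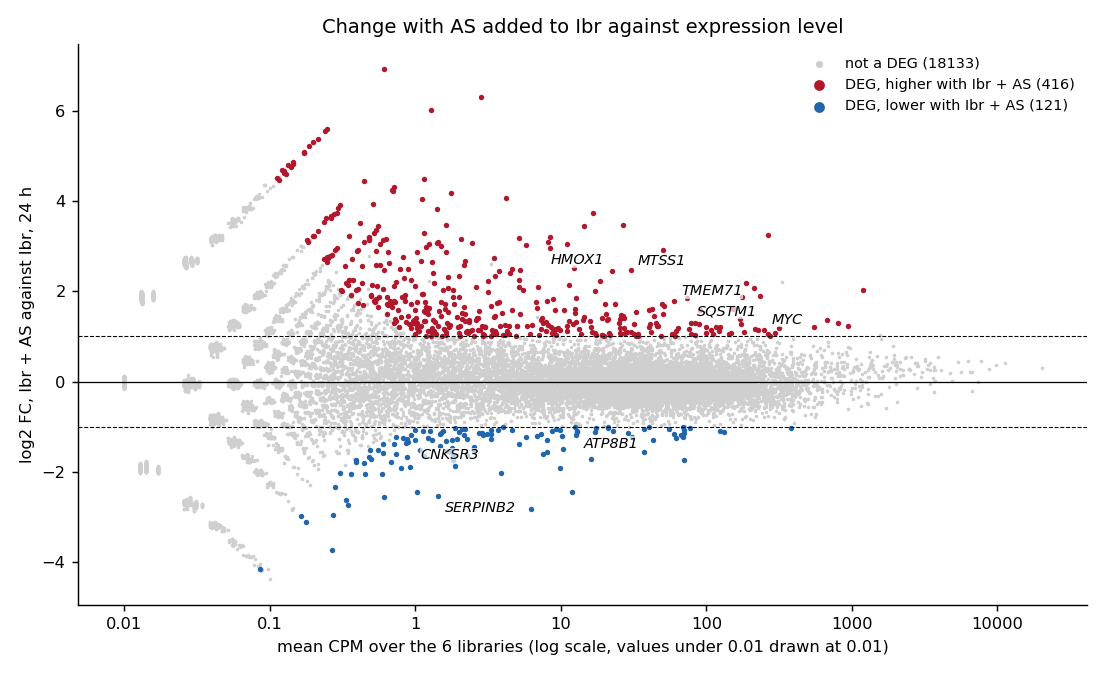
The log2 FC of Ibr + AS against Ibr at 24 h (vertical axis) against the mean CPM of the 6 libraries (log axis) for 18670 genes, with 416 higher DEGs in red, the lower DEGs in blue and dashed lines at a log2 FC of 1 and -1. Higher DEGs outnumber lower ones, and the called genes are thickest at low and middle levels.

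Within passages, the same direction was found in all 3 pairs for 533 of the 537 DEGs, which the choice of these genes from the same libraries favors. CPM of the groups did not overlap for 522 of them, which the same choice favors too, compared with 28.1% of all genes tested. The median log2 difference of the higher DEGs was 1.56, 1.49 and 1.48 in p121, p126 and p128. For the lower DEGs it was -1.64, -1.25 and -1.09, and 78 of them had their largest difference in p121, the passage of the Ibr + AS library that stood apart. Among the higher DEGs this was 198 of 416.

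**Figure D3:**
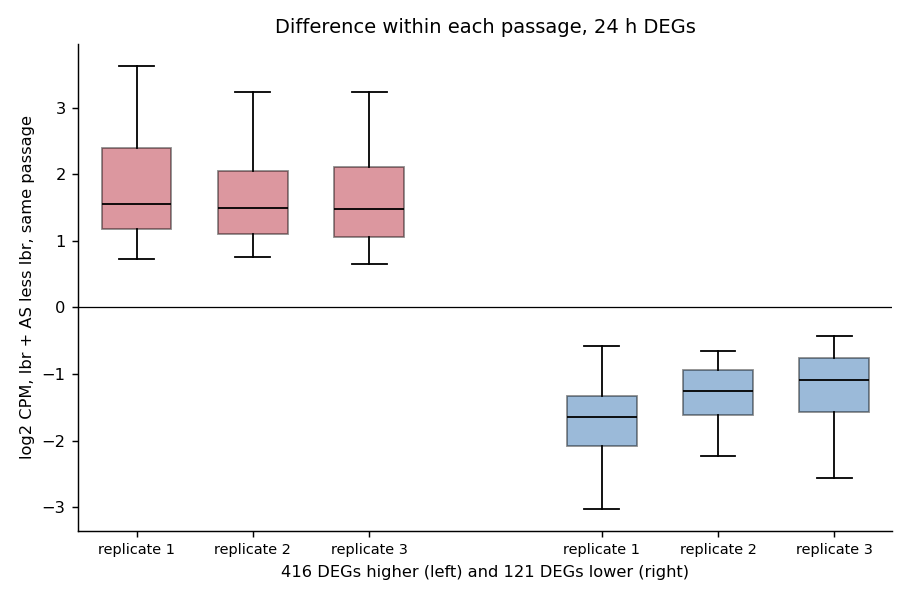
Boxplots of the log2 CPM difference between Ibr + AS and Ibr within each passage (p121, p126 and p128) for 416 higher DEGs and the lower DEGs, with whiskers from the 5th to the 95th percentile. The higher DEGs have near-equal medians in the 3 passages, and the lower DEGs reach furthest down in p121.

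Gene groups of B-cell and growth biology were followed next, by the adjusted p alone, since few named genes changed by more than a log2 FC of 1. Among the 1068 genes with a symbol, 13.1% were higher and 12.7% lower at an adjusted p of at most 0.05 in edgeR, and of all 18670 genes 19.4% passed in either direction. Each count below is to be read against these shares.

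Genes of the cell cycle and DNA replication leaned lower: 16 of 30 fell, 2 rose and 12 did not pass, and the median log2 FC of the 30 was -0.29 against -0.00 over all genes tested. Without Ibr + AS replicate 1 the counts were 14 and 1. ATAD2, a chromatin ATPase of proliferating cells, fell from 352, 395 and 354 CPM to 173, 241 and 223 CPM (log2 FC -0.79 ± 0.10, adjusted p = 2.72e-10 in edgeR). CDC23, a subunit of the anaphase-promoting complex, fell by 0.67, MCM5, part of the replicative helicase, by 0.62 and LMNB1, a nuclear lamin, by 0.56 on the log2 scale.

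The kinases that drive G1 and S phase fell as well, CDK2 by 0.61 (from 45.6, 52.4 and 54.1 CPM to 32.4, 34.4 and 32.4 CPM) and CDK4 by 0.39. In both, every Ibr + AS library was below every Ibr library. The mitotic genes KIF20A (-0.11, adjusted p = 0.475 in edgeR) and GTSE1 (-0.13, adjusted p = 0.405) did not pass. The 2 members that rose were CCND3, a D-type cyclin of lymphoid cells (0.36), and NCAPH2, a condensin II subunit (0.34), of which NCAPH2 did not pass without Ibr + AS replicate 1 (adjusted p = 0.0925 in edgeR).

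Immediate early genes and the MYC network went the other way, with 6 of 11 higher and 2 lower, a count that did not change without replicate 1 of Ibr + AS (median log2 FC 0.40). Besides MYC, these were TRIB1, a pseudokinase (0.77), IER3, a stress-induced survival factor (0.64), the kinase PIM1 (0.50), NAB2, a co-repressor of EGR factors (0.45), and CITED2, a modulator of p300 (0.39). EGR1 itself varied widely, with 44.9, 15.9 and 12.4 CPM in Ibr and 40.1, 11.2 and 12.8 CPM in Ibr + AS. With all libraries its difference was far inside the spread between passages (log2 FC -0.22 ± 0.59, adjusted p = 0.912 in edgeR). Without Ibr + AS replicate 1 EGR1 was lower and passed (log2 FC -0.54, adjusted p = 0.000985 in edgeR). MYB, a transcription factor of hematopoietic progenitors (-0.47), and PA2G4, a growth regulator of ribosome assembly (-0.41), fell. MYB and IER3 no longer passed without Ibr + AS replicate 1 (adjusted p = 0.113 and 0.0868 in edgeR). KLF10, which was higher (0.34, adjusted p = 0.0116 in edgeR), and EGR1 passed there. The genes behind the equal count are therefore not the same.

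In the group of B-cell receptor signaling and B-cell regulators, 4 of 14 rose and 2 fell (4 and 0 without Ibr + AS replicate 1). TNFRSF13C, the BAFF receptor on which mature B cells depend, rose from 157, 159 and 174 CPM to 310, 265 and 275 CPM (log2 FC 0.80 ± 0.10, adjusted p = 3.07e-10 in edgeR). All Ibr + AS libraries lay above all Ibr libraries. TAGAP, a GTPase-activating protein of activated lymphocytes, rose by 0.71 in log2 FC, although replicate 1, at 33.3 CPM, was hardly above the Ibr libraries (30.4, 31.6 and 30.6 CPM) while replicates 2 and 3 held 65.1 and 53.2 CPM. DEF6, an exchange factor in lymphocyte receptor signaling (0.48), and RAC2, a hematopoietic GTPase (0.36), also rose. PTK2B, the tyrosine kinase PYK2, fell by 0.24 with MYB. RAC2 (adjusted p = 0.0720 in edgeR) and PTK2B (0.629) did not pass without Ibr + AS replicate 1, so that the genes behind the count there are not the same.

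Of the PI3K, AKT, mTOR and FOXO axis only 9 of 26 listed genes could be paired with a symbol, and 2 of these rose (3 without Ibr + AS replicate 1): DEPTOR and PRR5, a subunit of mTOR complex 2, which went from 139, 136 and 133 CPM to 180, 157 and 171 CPM (0.31). PIK3R1, the main regulatory subunit of class IA PI3K, held 62.8, 67.0 and 58.9 CPM in Ibr and 62.1, 71.3 and 64.2 CPM in Ibr + AS, and the groups overlapped (log2 FC 0.07 ± 0.09, adjusted p = 0.718 in edgeR). INPP5D, the lipid phosphatase SHIP1, did not pass (-0.15, adjusted p = 0.341), nor did FBXO32, a FOXO target (0.26, adjusted p = 0.634). PIK3CG itself was not among the genes with a symbol and was not analysed here.

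NF-kB and TNF signaling was mixed, with 5 of 17 higher and 3 lower. IRF5, an interferon regulatory factor of B cells, rose from 155, 149 and 151 CPM to 315, 283 and 283 CPM (log2 FC 0.95 ± 0.09, adjusted p = 1.00e-15 in edgeR), and no Ibr + AS library came near the Ibr range. IRF1 rose from 61.7, 57.7 and 62.1 CPM to 122, 101.1 and 101.8 CPM (0.84). The NF-kB inhibitor TNFAIP3, or A20, fell by 0.49, SOD2, the mitochondrial superoxide dismutase, by 0.44 and LTA, lymphotoxin alpha, by 0.41 on the log2 scale. Without Ibr + AS replicate 1 the group counted 3 higher and 3 lower.

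Antigen presentation showed 5 of 9 genes higher and 1 lower, or 6 and 1 without Ibr + AS replicate 1, with a median log2 FC of 0.30. Besides IRF1, which is also counted above, these were the class I gene DLA88 (0.57; from 64.9, 68.6 and 78.1 CPM to 113, 93.9 and 107 CPM), the peptide transporter TAP1 (0.43), DLA-DOA, a class II chaperone (0.39), and TAPBP, or tapasin (0.30). The class II gene DLA-DRA, at 3262, 3262 and 3739 CPM in Ibr and 3965, 4208 and 4050 CPM in Ibr + AS, did not pass (0.25, adjusted p = 0.0934 in edgeR). CANX, the endoplasmic reticulum lectin that assists class I folding, was the member that fell (-0.45). TAPBP did not pass without Ibr + AS replicate 1 (adjusted p = 0.0930 in edgeR). DLA-DRA (0.25, adjusted p = 0.0247 in edgeR) and the class II gene DLA-DQA1 (0.33, adjusted p = 0.00427) were higher and passed there.

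Lysosome and autophagy genes rose in 7 of 19 cases and fell in 1, with the same counts without Ibr + AS replicate 1. Beyond SQSTM1, the members that rose included ARSA, arylsulfatase A (0.59), CD63, a tetraspanin of late endosomes (0.46), VPS28, an ESCRT subunit (0.44), NEU1, a lysosomal sialidase (0.42), and FLOT1, a lipid raft protein (0.37). The proton pump subunit ATP6V1C1 fell by 0.33 on the log2 scale, whereas TFEB, the transcription factor of lysosomal genes, did not pass (0.13). VPS28 did not pass without Ibr + AS replicate 1 (adjusted p = 0.153 in edgeR), whereas SLC29A3 was higher and passed (0.67, adjusted p = 0.00512). The genes behind the equal count are therefore not the same.

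Heme and oxidative stress genes did not move as one. HMOX1 and SQSTM1 rose, whereas ACO1, the iron-regulatory aconitase, fell by 0.49, SOD2 by 0.44, TXNL1, a thioredoxin-like protein, by 0.41 and FECH, which inserts iron into heme, by 0.29 on the log2 scale (2 of 13 higher, 4 lower). TXNRD1, thioredoxin reductase 1, had a log2 FC of -0.17 and did not pass. The counts were the same without Ibr + AS replicate 1.

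In the groups of amino acid supply and protein folding more genes fell than rose. In the ATF4 and tRNA synthetase group 5 of 16 fell and 1 rose, with XPOT, the tRNA exporter (-0.56), NARS1 (-0.45) and MARS1 (-0.36), both tRNA synthetases, among them. In protein folding 7 of 23 fell and 2 rose, including the chaperones HSPA9 (-0.50) and HSPA4 (-0.49), while WFS1, wolframin of the endoplasmic reticulum, rose from 120, 105 and 105 CPM to 241, 167 and 200 CPM (0.87). Without Ibr + AS replicate 1 these counts were 4 and 0 for the first group and 6 and 1 for the second.

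Ribosome, translation and ribosome biogenesis genes split, with 6 of 30 higher and 7 lower (3 and 8 without Ibr + AS replicate 1). Ribosomal protein genes were among those that rose (RPL8 0.45, RPL10A 0.33, RPS18 0.31 and RPL3 0.29), whereas ETF1, the translation termination factor (-0.64), and UTP20, a ribosome biogenesis factor (-0.45), fell. RPL10A, RPS18 and RPL3 did not pass without Ibr + AS replicate 1 (adjusted p = 0.0929, 0.248 and 0.136 in edgeR). Of 25 genes of mitochondrial enzymes and the respiratory chain, 4 fell and 1 rose, and without Ibr + AS replicate 1 the split was 8 and 1. VDAC1, the outer membrane channel, fell by 0.40 and NDUFA6, a complex I subunit, had a log2 FC of 0.60.

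Cholesterol and lipid genes were few in either direction (2 of 15 higher, 3 lower, and 3 and 2 without Ibr + AS replicate 1). SQLE, squalene epoxidase, was clearly lower, at 505, 501 and 546 CPM in Ibr and 283, 290 and 255 CPM in Ibr + AS (log2 FC -0.91 ± 0.10, adjusted p = 2.13e-12 in edgeR). No library of one group reached the range of the other. ACAT2, which makes acetoacetyl-CoA, fell by 0.48 on the log2 scale, and PLIN2, a lipid droplet protein, and CPT1B, a carnitine transferase, rose by 0.29 and 0.34. CPT1B did not pass without Ibr + AS replicate 1 (adjusted p = 0.181 in edgeR).

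Actin cytoskeleton and adhesion genes also split, with 7 of 26 higher and 5 lower (6 and 2 without Ibr + AS replicate 1). Next to MTSS1 and FGD2, the galectin LGALS1 (0.71), the cytolinker PLEC (0.54) and the non-muscle myosin MYH9 (0.44) rose. NEBL, a nebulin family protein (-0.95), PTK2, focal adhesion kinase (-0.71), and RAP1B, an integrin-activating GTPase (-0.42), fell. PTK2 did not pass without Ibr + AS replicate 1 (adjusted p = 0.0611 in edgeR).

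Among apoptosis and p53 genes 1 of 11 rose and 3 fell (1 and 1 without Ibr + AS replicate 1). GSDMD, the pore-forming protein of pyroptosis, rose from 99.4, 95.6 and 102 CPM to 196, 131 and 148 CPM (0.68). DAPK1, a death-associated kinase, went from 434, 467 and 412 CPM to 166, 260 and 334 CPM (-0.79, and -0.52 without Ibr + AS replicate 1). BCL2, the anti-apoptotic protein, held 22.3, 23.7 and 24.5 CPM in Ibr and 15.7, 17.5 and 20.5 CPM in Ibr + AS (log2 FC -0.39 ± 0.12, adjusted p = 0.0138 in edgeR), and did not pass without Ibr + AS replicate 1 (adjusted p = 0.198), without replicate 1 or 2 of all groups (0.0843 and 0.0841) or in a fit of the compared groups alone (0.0726). Hypoxia and glycolysis held 8 genes with a symbol, of which PLIN2 and CITED2 rose and none fell.

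The medians of the groups, over all their tested genes, stayed closer to 0 than the values of their leading members. The median log2 FC was 0.19 for lysosome and autophagy, 0.16 for cholesterol and lipid metabolism, 0.14 for hypoxia and glycolysis, 0.07 for the PI3K axis and 0.01 for actin and adhesion. It was -0.00 for ribosome and translation, -0.02 for apoptosis, -0.04 for B-cell receptor signaling, -0.12 for NF-kB and -0.13 for mitochondrial genes. Protein folding (-0.15), heme and oxidative stress (-0.20) and ATF4 and tRNA synthetases (-0.21) came nearest to the cell cycle group. Without Ibr + AS replicate 1 the PI3K axis (0.27), hypoxia (0.20), B-cell receptor signaling (0.19) and lipid metabolism (0.17) had higher medians. So had actin and adhesion (0.11), NF-kB (0.04), protein folding (-0.04) and heme and oxidative stress (-0.16). Lower were lysosome and autophagy (0.11), ribosome and translation (-0.04), apoptosis (-0.09), mitochondrial genes (-0.23) and ATF4 and tRNA synthetases (-0.23). B-cell receptor signaling and NF-kB thus changed sign.

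**Figure D4:**
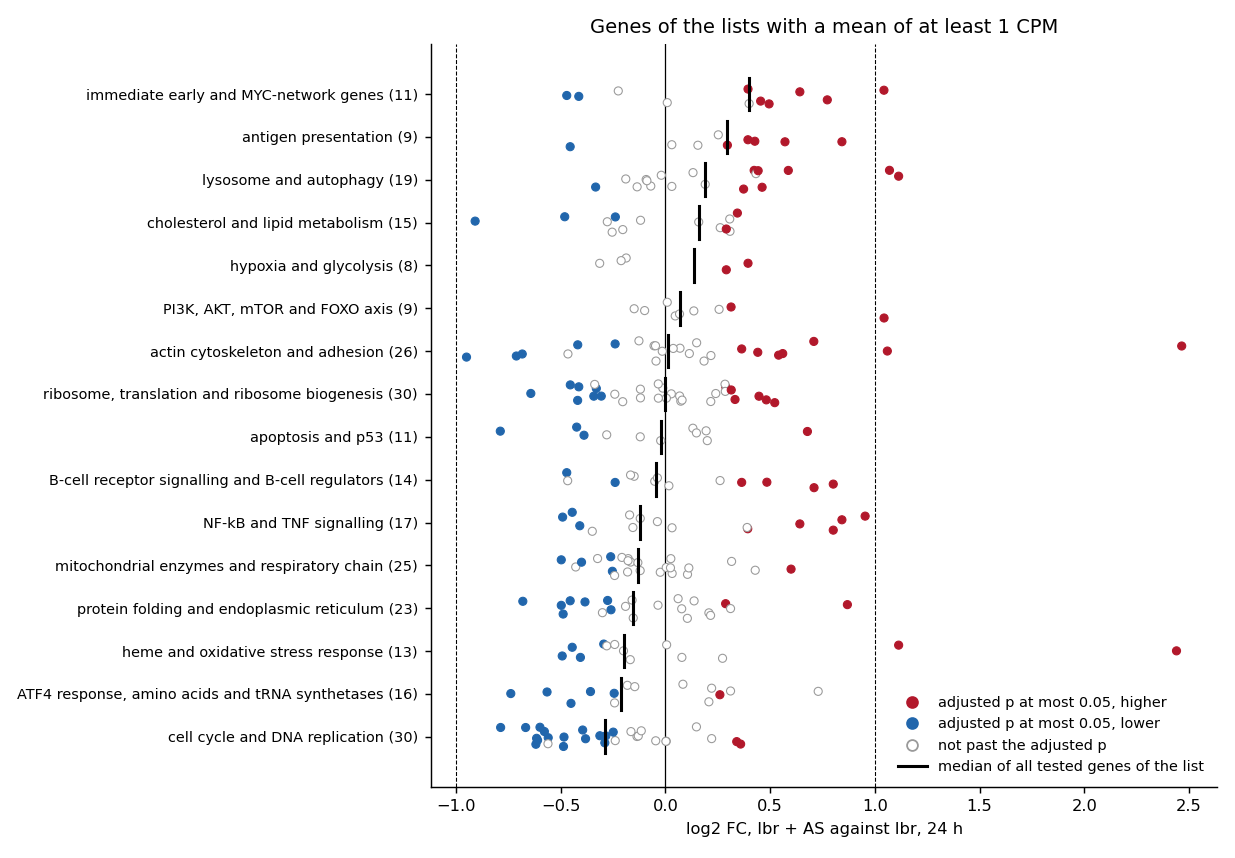
The log2 FC of Ibr + AS against Ibr at 24 h for genes of 16 groups with a mean of at least 1 CPM, filled where the adjusted p is at most 0.05, with a bar at the median of all tested genes of the group. The cell cycle group has the lowest median (-0.29) and the immediate early and MYC group the highest (0.40).

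Markers of cells other than B cells were checked in the same libraries. Of 11 T and NK cell markers 4 had a symbol, and their summed level was at most 0.3 CPM in any of the 6 libraries. Of 12 B-lineage markers DLA-DRA and TNFRSF13C had a symbol, with sums of 3419 to 3913 CPM in Ibr and 4274 to 4473 CPM in Ibr + AS. Of 8 myeloid markers 3 had a symbol, and their sum lay between 146 and 171 CPM in Ibr and between 227 and 327 CPM in Ibr + AS. Most of that sum was LYZ, lysozyme (157.8, 132.6 and 151.4 CPM against 316.5, 284.7 and 210.8 CPM, log2 FC 0.87), while TREM2 was near 0. No plasma cell marker had a symbol. The part of these markers in the other results was not tested, and fewer cells of a kind and less RNA per cell cannot be told apart in such libraries.

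AS given without Ibr changed far less. Against DMSO at 24 h, 37 genes were DEGs (0.198% of those tested, 59 genes when Ibr + AS replicate 1 was left out of the shared fit and 78 genes in a fit of the AS and DMSO libraries of 24 h alone). Of the 537 DEGs of AS on top of Ibr, 10 were also higher DEGs there (0.145% of all genes were) and 3 were also lower DEGs (0.0536%), with none in the opposite direction. The log2 FC of AS against DMSO uses none of the 6 libraries, although all groups share the passage terms and the estimate of the spread. The members leaned the same way, however: 310 of 416 higher DEGs were above 0 in AS against DMSO, compared with 52.9% of all genes, and 76.0% of the lower DEGs were below 0. The median log2 FCs were only 0.30 and -0.25. Without Ibr + AS replicate 1, which also enters the shared estimate of the spread, 417 genes were DEGs of AS on top of Ibr, and 18 higher and 4 lower ones were DEGs with AS alone.

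Whether AS acted differently with and without Ibr was tested by the difference of both effects, which 167 genes passed at the limits for a DEG (0.894%). The libraries of Ibr + AS and Ibr enter both this difference and the comparison itself, so that no overlap of the lists is given. MTSS1 had a log2 FC of 2.47 on top of Ibr and 0.73 on top of DMSO (from 3.47, 2.97 and 4.10 CPM to 6.46, 5.35 and 5.58 CPM), a difference of 1.73 (adjusted p = 0.000134 in edgeR). HMOX1 had a log2 FC of -0.08 on top of DMSO, a difference of 2.53 (adjusted p = 0.0125 in edgeR, and 1.95 without Ibr + AS replicate 1). TMEM71 differed by 1.30 (adjusted p = 0.00284).

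MYC was at 136 CPM on average in DMSO and 152 CPM in AS (log2 FC 0.16, adjusted p = 0.55 in edgeR), and its 2 effects differed by 0.89 (adjusted p = 4.17e-06). SQSTM1 rose with AS alone as well (0.42, adjusted p = 0.00635), but by less than on top of Ibr (difference 0.70, adjusted p = 0.000396 in edgeR). Of the genes that fell, SERPINB2 differed by -1.99 (adjusted p = 0.00218), CNKSR3 by -1.47 (adjusted p = 0.0131) and SMC1B, a meiotic cohesin subunit that was not a DEG on top of Ibr (-0.89), by -1.26 (adjusted p = 0.0323). The last 2 did not pass without Ibr + AS replicate 1 (adjusted p = 0.0608 and 0.127 in edgeR).

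Of the 30 cell cycle genes, 6 passed the adjusted p for this difference, all of them lower on top of Ibr (2.02% of all genes passed in that direction), and the count was also 6 without Ibr + AS replicate 1. ATAD2 fell by 0.79 on top of Ibr and had a log2 FC of 0.03 on top of DMSO (difference -0.81, adjusted p = 2.05e-05 in edgeR), MCM5 differed by -0.77 (adjusted p = 1.97e-05) and LMNB1 by -0.64 (adjusted p = 0.000261), whereas CDC23 did not pass (-0.41, adjusted p = 0.0655). CDK2, DSCC1 and TCF19 were the other members that passed. The median of the 30 genes was 0.02 for AS alone. Other genes showed no difference that passed: the tRNA synthetase NARS1 had -0.45 on top of Ibr and -0.42 on top of DMSO, HSPA9 -0.50 and -0.45, and EEF1D, an elongation factor subunit, 0.48 and 0.42, with differences of -0.03, -0.05 and 0.06 (adjusted p = 1.00 for each in edgeR).

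One day later the same addition was measured in libraries of its own. At 48 h 518 genes were DEGs of Ibr + AS against Ibr (2.77%, and 324 genes without replicate 2 of all groups), 388 of them higher (2.08%) and 130 lower (0.696%). Of the DEGs of 24 h, 219 of the 416 higher ones and 58 of the lower ones were among them in the same direction, 277 of 537 in all (51.6%), with none in the opposite direction. In sign, 403 higher and 113 lower DEGs stayed the same, where 50.5% of all genes were above 0. The median log2 FCs of all higher and all lower DEGs of 24 h were 1.21 and -1.09 there. Of the 417 DEGs called without Ibr + AS replicate 1 at 24 h, 234 were DEGs at 48 h in the same direction. MTSS1 (1.93), HMOX1 (2.58), SQSTM1 (1.51), DEPTOR (1.74) and SERPINB2 (-2.68) were again past the limits, whereas MYC had a log2 FC of 0.71. The difference of the effects at 48 h and 24 h passed the limits for 1 gene (0.00536%), which carries no symbol here and is not among the 537 DEGs. Without Ibr + AS 24 h replicate 1 this count was 32, and without replicate 1 of all groups 27, so that it depends on these libraries.

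**Figure D5:**
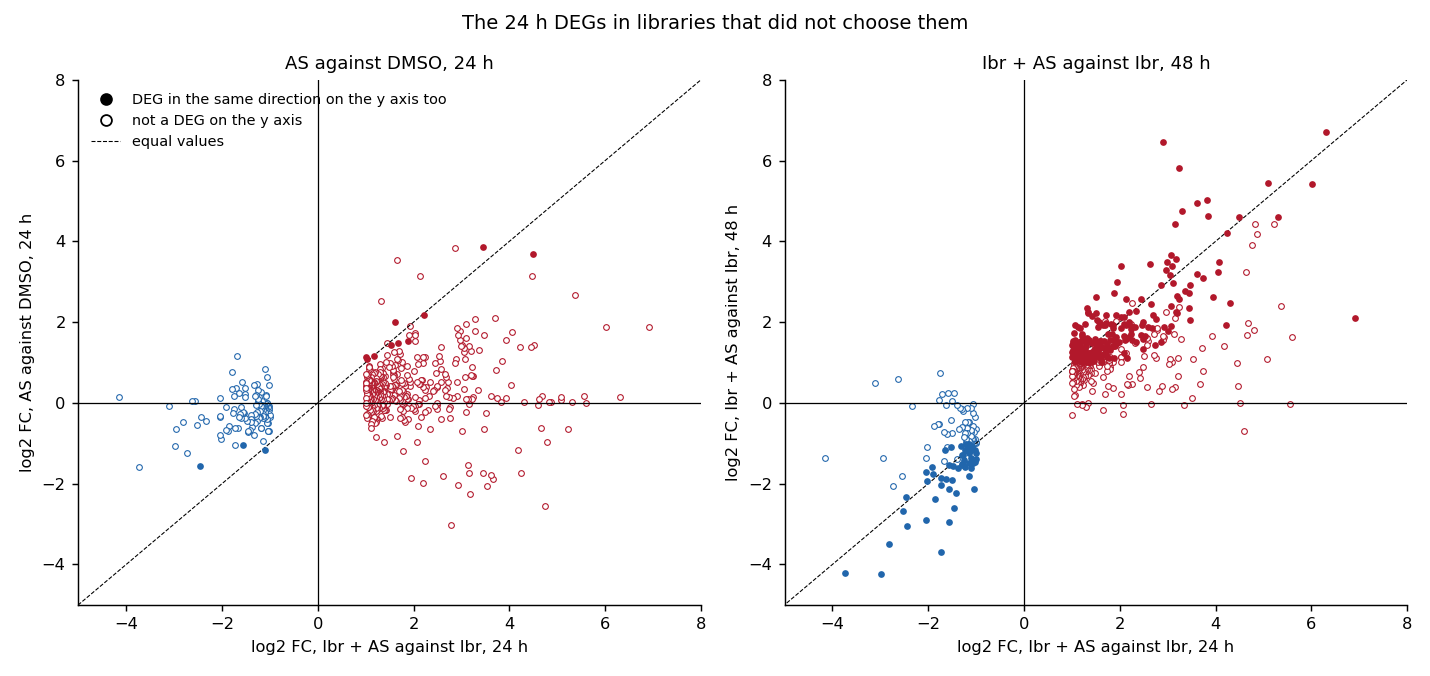
The 537 DEGs of Ibr + AS against Ibr at 24 h (horizontal axis, log2 FC) against their log2 FC for AS against DMSO at 24 h (left) and for Ibr + AS against Ibr at 48 h (right), filled where a gene is a DEG in the same direction there. On the left most points lie near 0 and 13 are filled, and on the right 277 are filled.

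At 72 h, where Ibr has 2 libraries in the fit, 323 genes were DEGs (1.73%; 0.803% higher and 0.927% lower), and 77 higher and 40 lower DEGs of 24 h were among them in the same direction. The median log2 FCs of the members were 0.85 and -0.80. HMOX1 had a log2 FC of 2.29, MTSS1 0.85 and MYC 0.29 (adjusted p = 0.102 in edgeR). BCL2 had a log2 FC of -0.39, -0.71 and -1.06 after 24, 48 and 72 h. No test of the change to 72 h was made for these genes.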

How the data were processed

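Per the labels and the study's methods, poly-A RNA was sequenced single-end, reads were mapped to the CanFam3.1 assembly with STAR 2.7.5a, and the authors deposited one table of raw counts per Ensembl gene for 36 libraries (30424 genes). The strand setting of the counting is not given in the sources used here, so overlapping and antisense genes cannot be told apart from their partners. The table has 0 columns of other samples. For replicate 3 of DMSO at 24 h the title names passage 126 but the passage field 128, which was followed.

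Tests were run on the deposited counts with edgeR 4.0.16 (limma 3.58.1, R 4.3.3). Genes with fewer than 2 reads in total were dropped, TMM factors were used, and a robust quasi-likelihood model with passage and group as terms was fitted to 35 libraries. Ibr 72 h replicate 3 was left out, as in the study. Genes with an adjusted p (Benjamini-Hochberg, over all 18670 genes) of 0.05 or less and a log2 FC beyond 1 in size were called DEGs. The SE of a log2 FC is its size divided by the square root of the F statistic, an approximation. Log2 CPM used a prior count of 1, and fold bounds a floor of 3 counts per library. The edgeR fit was tested on simulated counts for the comparisons at 24 h and 48 h, the difference of both effects and the change over time. DESeq2 was tested so for the main comparison and the difference of both effects. The simulated counts held no passage effect, and the 72 h comparison, the other alternatives and the gene lists were not tested in this way. Floors cover counting error only, whereas the SEs include the spread between libraries.

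Passage is a culture shared by the libraries of one replicate number, and the study's model holds it, so it was kept as a replicate block. Deviations of Ibr + AS and Ibr libraries from their group means correlated with r of 0.0905, 0.236 and -0.198 in replicates 1, 2 and 3, and over all 24 h groups with a median r of 0.123 within a passage (18 pairs) and -0.0463 between passages (36 pairs). Deviations from a group's own mean cancel within the group. The value between passages therefore largely follows from the value within a passage and is no separate evidence.

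Symbols were taken from identifiers paired with names in the parts of the study's supplementary tables that were at hand (1068 genes). The RefSeq table at hand pairs none with an Ensembl identifier. Genes with a symbol are not a random sample of the genes tested, so shares among them need not hold for all genes. Named genes are the 12 DEGs with the highest and the 12 with the lowest log2 FC that have a symbol, a mean of at least 1 CPM and the same direction in 3 passages (12 were taken among those that rose and 5 existed among those that fell, and 1 is not reported here), the 3 with the highest mean CPM in each direction, up to 4 genes of each list with the smallest adjusted p, the genes that differed most from AS given with DMSO, MYC, MYB, BCL2, PIK3R1 and HMOX1, and 2 identifiers without a symbol in each direction. Further list members were named in the text after their values were seen. The gene lists were written from known function, with a view of which symbols could be paired. The comparison, the gene lists and the rules were chosen with earlier results of these data known, so no list is independent evidence of its direction. Some genes stand on 2 lists. Columns of the authors' own comparisons were not used.

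Alternatives were DESeq2 1.42.0, RLE factors, other filters, all 36 libraries, no replicate block, glmTreat, fits of the compared groups alone, sequencing run as a term, libraries thinned to 9941919 reads, each replicate left out, and Ibr + AS 24 h replicate 1 left out. The counts of the gene lists, of DEGs followed elsewhere and the named values without that library were chosen after seeing the data.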

Additional observations from a re-analysis of the deposited data

Results flagged for a closer look

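The responses below differed between 2 settings of the same contrast by a test of the difference itself in edgeR, and no reason for any of them was tested. For AS added to Ibr less AS added to DMSO at 24 h, 167 genes passed an adjusted p of at most 0.05 with an absolute log2 difference above 1, and leaving out each replicate or Ibr + AS 24 h replicate 1 moved this between 131 and 231. Among genes with a symbol, HMOX1 (2.53), MTSS1 (1.73) and TMEM71 (1.30) had the most positive log2 differences, and SERPINB2 (-1.99), CNKSR3 (-1.47) and SMC1B (-1.26) the most negative. CNKSR3 and SMC1B did not pass without Ibr + AS 24 h replicate 1 (adjusted p = 0.0608 and 0.127 in edgeR), and HMOX1 was then 1.95. For AS added to Ibr at 48 h less at 24 h, 1 gene passed, and this count was 32 without that library.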

How the results depend on the processing

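The 537 DEGs of Ibr + AS against Ibr at 24 h became 475 with DESeq2 (462 of them shared), 539 with RLE factors, 501 with filterByExpr, 530 after thinning and 534 with sequencing run as a term. Without the replicate block they were 529, of which 519 were shared. Leaving out each replicate, or Ibr + AS 24 h replicate 1 alone, gave 417 to 537 DEGs, of which 333 to 378 were higher and 84 to 159 lower. Where replicate 1 or 2 was left out, Ibr 72 h kept 1 library, assumed to vary like the other groups. Past a log2 FC of 1, several named genes lose the DEG call without Ibr + AS 24 h replicate 1, as given above. All DEGs present in a fit kept their sign under each alternative. Under glmTreat, which tests for a log2 FC above 1 in size, 79 remained (72 higher and 7 lower), together with 1 for AS against DMSO, 0 for its difference to AS on top of Ibr, 45 at 48 h and 43 at 72 h. In fits of the compared groups alone with the replicate block, AS against DMSO gave 78 DEGs and 72 h gave 212. With replicates or Ibr + AS 24 h replicate 1 left out the ranges were 36 to 59 for AS against DMSO (59 without Ibr + AS 24 h replicate 1), 131 to 231 for the difference of both effects, 324 to 585 at 48 h (324 without replicate 2) and 232 to 365 at 72 h. The difference between 48 h and 24 h, 1 gene, was 0 under DESeq2, RLE factors, filterByExpr, all 36 libraries, no replicate block and glmTreat, 3 in the fit of its own groups, and 7 to 32 in the fits with libraries left out (27, 7 and 9 without replicates 1, 2 and 3, and 32 without Ibr + AS 24 h replicate 1). The cause of these shifts was not tested, other than that glmTreat asks for more. Without the block all 20 named genes tested under the alternatives kept their side of the adjusted p limit, the difference of both effects gave 136 genes, and the count of a gene list moved by at most 2. Of 280 values of 20 named genes under 14 alternatives, 255 kept their side of the adjusted p limit, 25 no longer passed it (15 of them under glmTreat, and otherwise MYO1A, SCX, CNKSR3, MYB or BCL2) and 0 reversed. At this depth genes under 1 CPM rest on few reads, and 130 of the higher and 35 of the lower DEGs are such genes.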

Other observations

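Of the 23 DEGs with a symbol, 6 are not covered by the rule for named genes and were picked out after their values were seen. RASGEF1C, a RAS exchange factor, had a log2 FC of 1.01 on top of Ibr and 1.13 on top of DMSO, and is the member with a symbol that was a DEG in both. The other 5 averaged under 1 CPM. WNT7B, a WNT ligand, held 2, 0 and 0 reads in Ibr and 26, 16 and 5 reads in Ibr + AS, at least 5.17-fold higher. MIP, an aquaporin of the eye lens, held 0, 1 and 0 reads against 12, 3 and 4 (at least 2.13-fold higher), and DOK6, a docking protein of receptor tyrosine kinases, 1, 0 and 1 against 5, 5 and 7 (at least 1.79-fold higher). IL5, a cytokine of B cells and eosinophils, went from 8, 4 and 4 reads to 13, 15 and 11. TRERF1, a zinc finger protein, went from 17, 10 and 5 reads to 1, 6 and 4, and these reads, not scaled to library size, overlapped between the groups.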
